A study of Mus musculus and Rattus norvegicus with 2 samples.

Results

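The regions described here are fragments of 18S ribosomal RNA (rRNA) in small RNA libraries of caput epididymal sperm. They were taken as every listed sequence whose matched entry is the Rfam family RF01960, the eukaryotic small subunit rRNA, with minus-strand rows turned to the reverse complement. This gave 19867 of 914516 listed sequences in mouse and 11074 of 650877 in rat, and all of them are counted below. The libraries came from purified sperm of a C57BL/6 mouse group aged 2 months and of a Sprague Dawley rat group of young adults of 450 g, with 1 library per species. The labels name no treatment or transgene, and they do not say how many animals were pooled. There is no replicate, so the comparisons below are between these 2 libraries, and the printed 95% intervals cover counting error only.

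18S rRNA is the RNA core of the small ribosomal subunit, which decodes mRNA. It is cut out of a long precursor that also holds 5.8S and 28S rRNA, while 5S rRNA is transcribed apart. Sperm lose most of their cytoplasm and ribosomes as they form, and rRNA fragments are a known part of their small RNA.

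Fragments were placed on an 18S copy of 1849 nt, read from the GENCODE vM21 transcript of CT010467.1 and turned to the 18S strand. In GRCm38 the copy lies at chr17:39846353-39848201 on the plus strand, within a gene that GENCODE annotates as rRNA on the minus strand. RefSeq lists an 18S-related sequence there, Rn18s-rs5, as a pseudogene, and the plus-strand long noncoding RNA gene Gm42418, at chr17:39846958-39848788, overlaps it. The copy lacks a stretch of 27 nt after base 1747 that reads of both libraries hold and that is given in the last paragraph, so reads across it are not in the values below. Base 1 is the 5′ end of the 18S copy, and all positions below count from it. The following sequences carry the results and are printed 5′ to 3′. Capitals mark bases at which the 18S entry of that library holds another base, either from the deposited mismatch column or, for rat reads listed under other records, from the rat entry as rebuilt from its own reads. The rat entry was rebuilt only from base 428 on, so rat sequences before it have no capitals.
Rat, bases 1035 to 1055, 21 nt, listed under the 18S entry: agaacgaaagtcggaggTtCg
Rat, bases 1035 to 1063, 29 nt, listed under an mRNA record: agaacgaaagtcggaggTtCgaagaCgat
Rat, bases 780 to 803, 24 nt, listed under the 18S entry: ctgagtgtcccGCggggcccgaag
Rat, bases 433 to 460, 28 nt, listed under an mRNA record: attcCggagagggagcctgagaaACggc
Rat, bases 135 to 197, 63 nt, listed under an mRNA record: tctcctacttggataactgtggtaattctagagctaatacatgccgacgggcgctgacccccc
Rat, bases 1 to 18, 18 nt, listed under an mRNA record: tacctggttgatcctgcc
Mouse, bases 1 to 41, 41 nt, listed under an 18S entry: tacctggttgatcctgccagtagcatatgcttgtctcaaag
Mouse, bases 546 to 563, 18 nt, listed under an 18S entry: ctttcgaggccctgtaat
Mouse, bases 844 to 872, 29 nt, listed under an 18S entry: agccgcctggataccgcagctaggaataa
Mouse, bases 1279 to 1325, 47 nt, listed under an 18S entry: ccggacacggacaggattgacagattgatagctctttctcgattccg
Mouse, bases 1747 to 1794, 48 nt, listed under an 18S entry: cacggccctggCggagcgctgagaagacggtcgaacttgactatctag
Mouse, bases 1386 to 1425, 40 nt, listed under an 18S entry: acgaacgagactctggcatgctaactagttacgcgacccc
Rat, the same 40 nt, listed under the 18S entry: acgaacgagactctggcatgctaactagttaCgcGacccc

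Under the 18S entries, the mouse library held 192208 reads and the rat library 122407. That was 1.63% of all listed mouse reads (1.63 to 1.64) and 0.835% of listed rat reads (0.831 to 0.840). The share was 1.96-fold higher in mouse, a log2 ratio of rat over mouse of -0.97 (-0.98 to -0.96). Among reads under all rRNA entries, 18S took 19.7% in mouse and 5.04% in rat. That total includes GenBank rRNA records, under which 43152 rat but 2 mouse reads of 18S sequence stood. These reads are in the total but not in the 18S count, which lowers the rat share. The 5S and 5.8S families went the opposite way to 18S, and 28S was not counted. 5S rRNA had 1.29% of listed mouse and 2.15% of listed rat reads, and 5.8S rRNA had 0.0447% and 0.450%.

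The direction for 18S depended on the record under which its reads were listed. When listed reads of every record were placed on the 18S copy with at most 2 mismatches, 191554 mouse and 307607 rat reads carried 18S sequence. They made up 1.63% of mouse and 2.10% of rat listed reads, a log2 ratio of 0.37 (0.36 to 0.37), so that the share was then 1.29-fold higher in rat. This order rests in turn on the totals. A small nucleolar RNA, SNORD58, takes a large part of the mouse total. Outside SNORD58 entries, 18S sequence was 2.48% of mouse and 2.10% of rat reads, a log2 ratio of -0.24. The rat share did not change with this filter, and whether rat SNORD58 reads stood under other records was not tested. Without the most abundant sequence of each library, the shares were 2.38% in mouse and 2.66% in rat, a log2 ratio of 0.16. Shares within the 18S reads do not depend on these totals.

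In mouse, 15 reads with 18S sequence, 0.00783% of them, were listed outside the 18S entries, and 267 (0.139%) when the 27 nt were added to the copy. In rat, 186435 reads were, which was 60.6% of its 18S sequence (60.4 to 60.8), and 61.4% with the 27 nt added. Of the rat reads, 142545 (46.3%) stood under mRNA records and 43152 (14.03%) under GenBank rRNA records. Reads counted as mRNA in this rat table therefore include 18S sequence, 96.4% of it without a mismatch to its record.

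**Figure D1:**
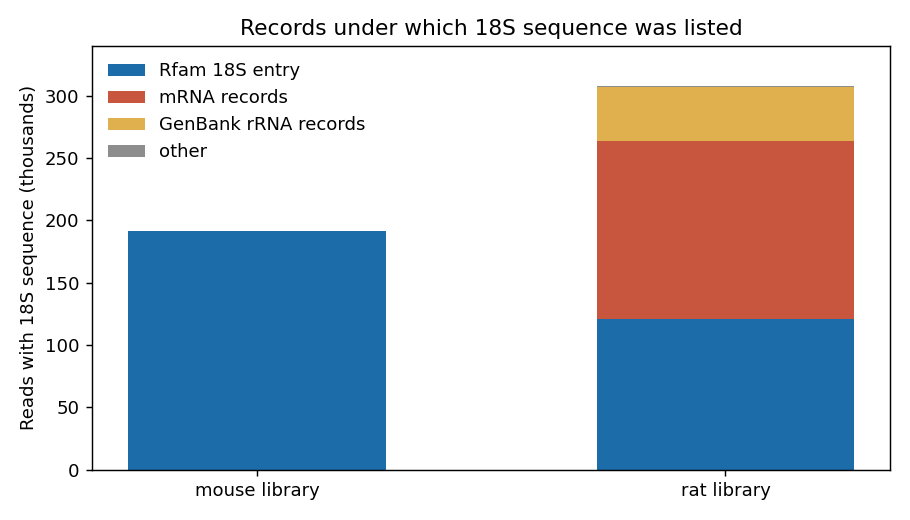
Reads with 18S sequence (y axis, in units of 1000 reads) in the mouse and rat libraries, stacked by the record under which they were listed. Nearly all 191554 mouse reads stood under the Rfam 18S entries, whereas 142545 of 307607 rat reads stood under mRNA records.

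The entries themselves differed in how close they were to the reads. Mouse members matched 2 entries. CT010467, of 1847 nt, held 170596 reads (88.8%), and AAHY01051041, of 1656 nt, held 21612 (11.2%). All rat members matched a single entry, AAHX01101633, of 1746 nt. Mouse members matched their entry without a mismatch in 89.04% of reads, with 1 mismatch in 10.5% and with 2 in 0.454%. In rat these shares were 21.9%, 20.2% and 57.8%. The largest class of rat members thus sat at the limit of 2 mismatches that the deposited table admits. Against the mouse 18S copy, rat 18S sequence of any record had 67.6% of reads exact and 2.06% at 2 mismatches. These are not the same reads as the members. Each set holds only reads with at most 2 mismatches to its own reference, so the 2 sets of shares are not a like comparison.

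Rat members began at base 428, and no rat read under the 18S entry covered the bases before it. Starts in bases 1 to 400 made up 14.1% of placed mouse members and 0 of 121172 placed rat members, which allows a share of up to 0.00248% (3 counts). Rat reads of any record did hold this part: 73115 of them, or 23.8%, started in bases 1 to 400, and 68448 of these were listed as mRNA. Of the rat reads listed under other records, 40.01% started before base 428.

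From base 428 on, the rat entry was rebuilt at 1332 bases by undoing the deposited mismatches in each read, and it differed from the most frequent base of the rat reads at 91 of them. Under other records, 78623 rat reads lay wholly on rebuilt bases. Of these, 72828 (92.6%) covered 3 or more of the differing bases, beyond the limit of 2, and 5795 covered fewer. Members had at most 2 mismatches by that limit, so their low share with 3 or more (0.26%) was fixed in advance. Why a read was listed under a given record was not tested. The share listed under the 18S entry was 96.7% for reads starting in bases 801 to 900, 43.2% in bases 1001 to 1100 and 19.7% in bases 401 to 500. It was 8.94% in bases 1701 to 1800, and 1.22% in bases 1801 to 1849, where only 82 rat reads started. This share did not simply follow the number of differing bases in the bin. Reads were binned by their start and can run into the next bin, whose differing bases that number leaves out. Bases 801 to 900 had 6 and bases 601 to 700, with 69.5% under the entry, had 2, and both bins were rebuilt at 100 bases. In bins of 50 nt, starts in bases 601 to 650 had 97.5% under the entry, with 2 differing bases. Starts in bases 651 to 700 had 63.9%, with 0 differing bases in their own bin and 6 in bases 701 to 750. Bases 401 to 500 also had 6, but only 73 bases of that bin were rebuilt. The 21-nt and 29-nt sequences from base 1035 printed above are an example from either side of the limit. The shorter holds 2 capitals and stood under the 18S entry, and the longer holds 3 and stood under an mRNA record.

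**Figure D2:**
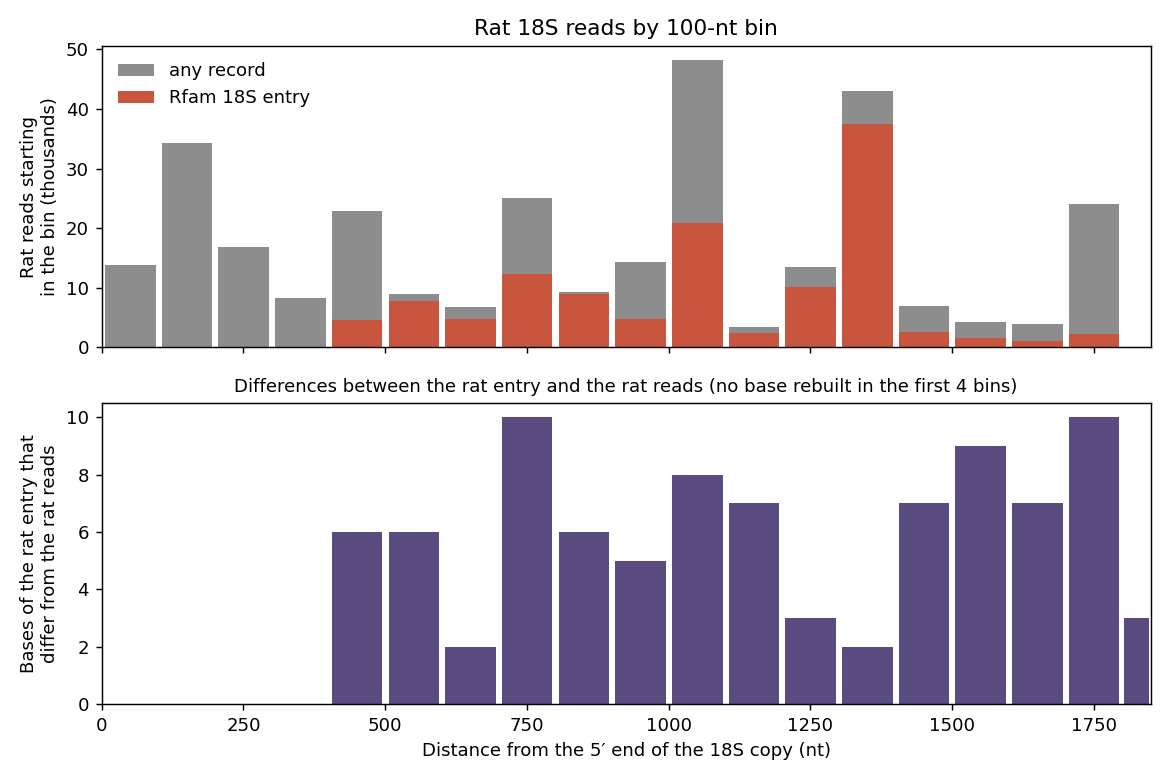
Rat reads by the 100-nt bin in which they start (x axis, distance from the 5′ end of the 18S copy in nt). The upper panel gives reads, in units of 1000, under any record (grey) and under the Rfam 18S entry (red), and the lower panel the number of bases at which the entry differs from the reads. Only rebuilt bases are counted, and not every bin was rebuilt at all its bases. Reads can run past the bin in which they start, so they can cover differing bases of the next bin. Bases 1301 to 1400, with 2 differing bases, kept 87.3% of reads under the entry, but bases 601 to 700, also with 2, kept 69.5% and bases 801 to 900, with 6, kept 96.7%.

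Coverage of the 18S copy was nearly complete in mouse, where reads under the 18S entries covered 99.9% of bases with a median of 1426 reads per base. Rat members covered 72.04% of bases with a median of 386 reads, and rat reads of any record covered every base with a median of 2299. Placement worked for 99.7% of mouse and 98.99% of rat member reads. Reads were spread unevenly in both libraries. The highest point was base 1399 in mouse, with 54132 reads, base 1396 among rat members, with 35171 reads, and base 1049 among rat reads of any record, with 42888.

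**Figure D3:**
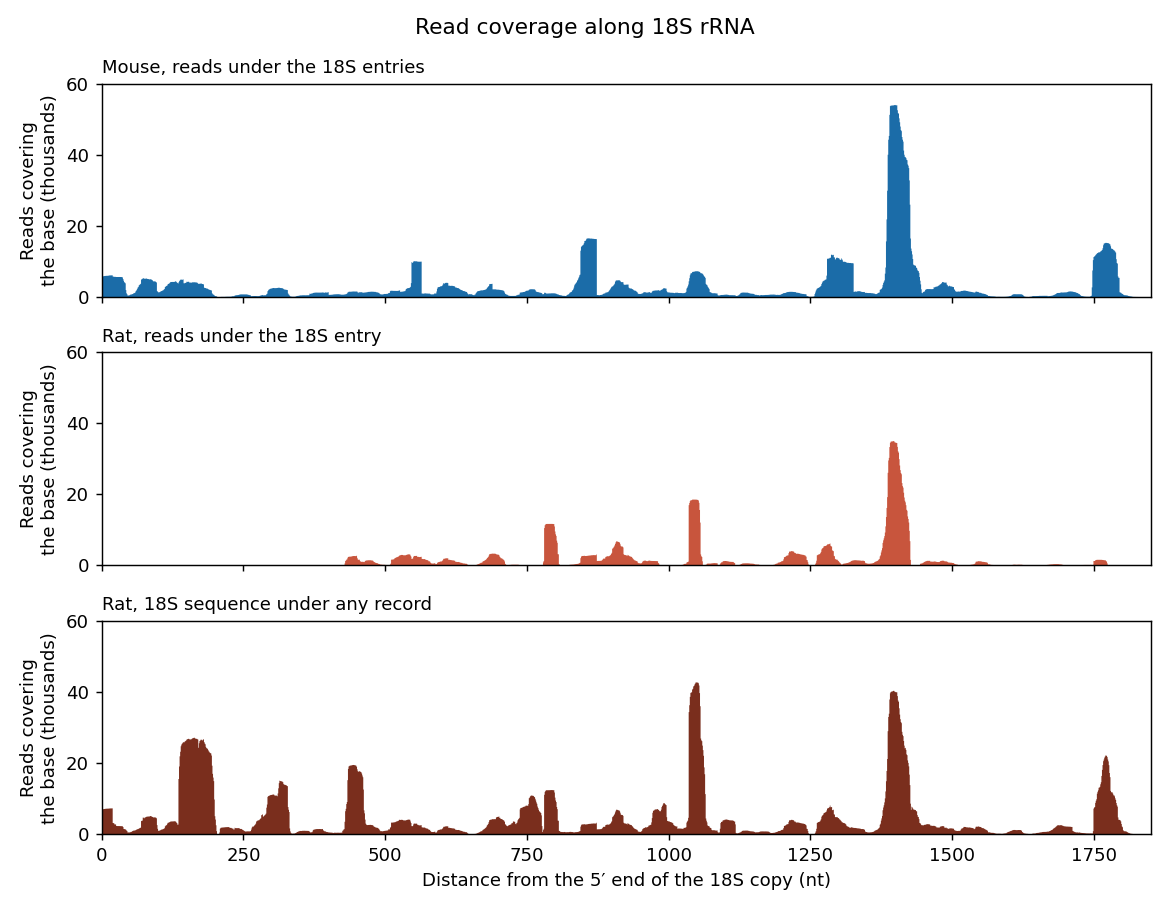
Reads covering each base (y axis, in units of 1000 reads) against distance from the 5′ end of the 18S copy (x axis, nt) for mouse members, rat members and all rat reads with 18S sequence. A peak near base 1399 is present in all panels, and peaks before base 428 are absent among rat members but present among rat reads of any record.

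Bases 1301 to 1400 held the largest part of the members in both libraries. Of placed members, 29.8% in mouse and 30.9% in rat started there, a log2 ratio of 0.05 (0.03 to 0.07). Among reads of any record, the share in rat was 13.96% and the log2 ratio of the shares was -1.10 (-1.11 to -1.08). The direction of this small difference therefore followed the set of records counted. The next bins in mouse were 801 to 900 with 10.6% of members and 1701 to 1800 with 8.43%. In rat they were 1001 to 1100 with 17.2% and 701 to 800 with 10.1%, where mouse had 4.60% and 1.88%. With every record counted, the leading rat bins were 1001 to 1100 with 15.7%, 1301 to 1400 with 13.96% and 101 to 200 with 11.2%, and mouse had 4.28% in the last of these.

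Within bases 1301 to 1400, fragments formed a ladder of closely spaced 5′ ends. Reads starting at bases 1382 to 1389 were 23.4% of placed members in mouse and 19.9% in rat, and with every record counted 23.4% and 9.08%. They comprised 1149 distinct member sequences in mouse and 429 in rat. Base 1386 was the most used 5′ end in mouse, with 10134 reads (5.29%), and the third in rat, with 6858 reads (5.66%). Bases 1385, 1383 and 1384 followed in mouse with 4.22%, 3.85% and 3.23%, against 2.52%, 2.18% and 2.13% in rat, and base 1387 had 2.21% and 2.87%. Base 1389 had 3.11% in mouse and 2.53% in rat. At the other side, base 1425 was the second most used 3′ end in both libraries, with 5.04% of mouse and 4.35% of rat members, and base 1424 had 3.57% and 2.40%. The 40-nt form from 1386 to 1425 had 2015 mouse and 1524 rat reads, 171 and 104 per 1000000 listed reads. Among forms that end at base 1425, those starting at bases 1385, 1384 and 1383 had log2 ratios of -2.40, -2.32 and -2.64, against -0.72 for the start at 1386. The 41-nt form from base 1385, for example, had 1803 mouse and 426 rat reads. A form with another 3′ end, bases 1384 to 1423, had 416 and 325 reads and a ratio of -0.67.

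The most used 5′ end of the rat reads was base 1035, which was minor in mouse. It opened 15893 rat and 919 mouse members, 13.1% and 0.480% of placed members. The log2 ratio of these shares was 4.77 (4.68 to 4.87). With every record counted, 29775 rat reads started there, 9.68% of rat 18S sequence, and the log2 ratio was 4.33 (4.24 to 4.43). Per listed read it was 4.70, with 2032 rat and 78.1 mouse reads per 1000000. The end was sharp in rat, where base 1034 had 805 reads and base 1036 had 1939. In mouse the neighbours were close to it, with 520 and 876 reads, and base 1031 was higher, with 958. Each mouse form from base 1035 that is named here matched its entry without a mismatch. On the copy, the 21-nt form lies at chr17:39847387-39847407.

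Reads from base 1035 also differed in length. The modal length was 21 nt in rat and 30 nt in mouse. The 21-nt form was the most abundant 18S sequence in rat, with 8222 reads, 6.72% of members, and had 64 reads in mouse, a log2 ratio per listed read of 6.69 (6.33 to 7.07). The 20-nt form had 3111 rat and 39 mouse reads, and the 19-nt form 1708 and 29. The 29-nt form had 3944 rat reads, all under an mRNA record, and 29 in mouse. The 30-nt form, the leading mouse form of this end, had 3558 rat and 220 mouse reads, a log2 ratio of 3.70 (3.50 to 3.90). Base 1055, where the 21-nt form ends, was the most used 3′ end of rat members with 7.40%, against 0.110% in mouse, and base 1054 had 2.95% and 0.0924%. Next to these, bases 1063 and 1064 closed 5661 and 6996 rat reads of any record, of which 10 and 7 were members, and 378 and 1830 mouse reads.

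Base 780 was the second 5′ end that stood out in rat. It had 9267 rat and 361 mouse members, 7.65% and 0.188%, a log2 ratio of 5.34 (5.19 to 5.50). With every record counted the ratio was 4.05. Its 24-nt form had 2440 rat and 18 mouse reads, the 26-nt form 2367 and 89, and the 19-nt and 22-nt forms 1114 and 13 and 985 and 19. Base 803, the 3′ end of the 24-nt form, had 2.65% of rat and 0.0444% of mouse members. The 20-nt fragment of bases 900 to 919, tggttttcggaactgaggcc, completes the 10 most abundant rat members with 901 reads against 58 in mouse.

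Further rat ends lay wholly or mostly outside the 18S entry. Base 135 opened 13105 rat reads, 4.26% of rat 18S sequence and none of it among members, and 567 mouse reads (0.296%). The log2 ratio was 3.85 (3.73 to 3.97). These fragments were long, with modes of 63 nt in rat and 59 nt in mouse. The printed 63-nt form had 2387 rat and 8 mouse reads. Base 433 opened 6154 rat and 289 mouse reads, and only 7.38% of the rat reads stood under the 18S entry. Its 28-nt form had 1728 rat and 18 mouse reads. Among 3′ ends, base 327 closed 5903 rat and 972 mouse reads of any record, and base 461 closed 5872 and 77.

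**Figure D4:**
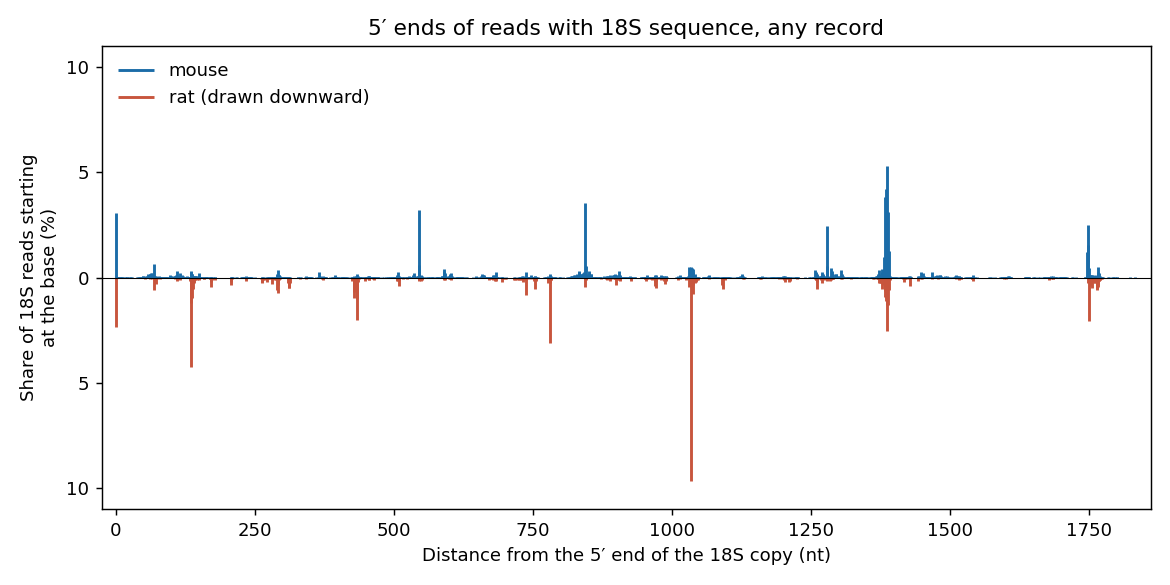
Share of reads with 18S sequence of any record (y axis, %) that start at each base (x axis, distance from the 5′ end of the 18S copy in nt), mouse upward and rat downward. The highest rat bar is base 1035 with 9.68%, and the highest mouse bar is base 1386 with 5.29%.

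Other fragments were concentrated in the mouse library. The 29-nt fragment of bases 844 to 872 was the most abundant mouse member, with 6687 reads (3.48% of members), and had 1051 in rat (0.859%). The log2 ratio per listed read was -2.99 (-3.08 to -2.89). On the copy it lies at chr17:39847196-39847224. Base 844 opened 3.53% of mouse and 1.07% of rat members. Base 872 closed 8.23% of mouse and 1.54% of rat members, and was the most used 3′ end in mouse with 15763 reads from 218 sequences. With every record counted, the log2 ratio of the 18S shares for base 872 was -3.75 (-3.82 to -3.68).

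The 18-nt fragment of bases 546 to 563 was the second most abundant in mouse, with 5870 reads against 382 in rat, a log2 ratio of -4.26 (-4.41 to -4.11). It has the shortest length that was listed, so forms below 18 nt were not seen. Base 563 closed 4.69% of mouse and 0.479% of rat members. For these fragments, 98.9% of rat reads from base 546 and 98.8% from base 844 stood under the 18S entry, so few were under other records.

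The 47-nt fragment of bases 1279 to 1325 had 2970 mouse reads, and 3 rat reads, all under a GenBank rRNA record. The log2 ratio per listed read was -10.27 (-12.55 to -8.72). The rat entry differs from this fragment at 3 bases, past the limit of 2. It differs from the shorter 28-nt form of bases 1279 to 1306 at only 1 base, but the 50 rat reads of that form also stood under a GenBank rRNA record. Why these reads were not under the 18S entry was not tested. Base 1325 closed 8066 mouse reads (4.21%) and 107 rat reads of any record (0.0348%), a log2 ratio per listed read of -6.55 (-6.84 to -6.28). The 48-nt fragment of bases 1747 to 1794 had 2792 mouse reads and no rat read under any record, so with a floor of 3 counts its log2 ratio was at or below -10.18. In rat the neighbouring base 1749 opened 6400 reads of any record and base 1747 opened 79, whereas in mouse these bases opened 880 and 4785. Base 1747 adjoins the 27 nt that the copy lacks, and that stretch ends in the same base. A start at base 1747 therefore cannot be told apart from a start at the end of the stretch. Reads across the stretch are not in these counts. The 30-nt form of bases 1749 to 1778 had 2028 rat and 59 mouse reads. In rat it stood under a GenBank rRNA record at the limit of 2 mismatches, and whether longer rat reads from here failed to be listed was not tested.

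The 5′ end of 18S rRNA itself was kept in both libraries. Reads starting at base 1 were 5832 in mouse and 7166 in rat, 496 and 489 per 1000000 listed reads, a log2 ratio of -0.02 (-0.07 to 0.03), not a detectable difference at this depth. As shares of 18S sequence they were 3.04% in mouse and 2.33% in rat, a log2 ratio of -0.39 (-0.44 to -0.34). All of the mouse reads and none of the rat reads stood under an 18S entry. Their modal lengths differed, at 41 nt in the mouse library against 18 nt in the rat library. The latter is the shortest length listed, so shorter forms were not seen. The 41-nt form had 1859 mouse and 122 rat reads, a log2 ratio of -4.25 (-4.52 to -3.98), and the 18-nt form had 343 and 4074, a ratio of 3.25 (3.09 to 3.42). The 28-nt fragment of bases 69 to 96, cggccggtacagtgaaactgcgaatggc, had 1039 mouse and 1526 rat reads, the latter under an mRNA record. The 3′ end of the copy was nearly empty. Placed members reached at most base 1847 in mouse and base 1845 in rat, so none ended at its last base. The main mouse entry has 1847 nt, so its reads could not reach that base. Of any record, 10 mouse and 5 rat reads ended there, against 9 and 17 at base 1845. Whether the last base of the copy is the 3′ end of 18S rRNA was not tested. Reads ending in the last 20 bases were 60 in mouse and 53 in rat.

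Rat 18S members were shorter than mouse members. The class from 18 to 25 nt took 20.9% of member reads in mouse and 49.8% in rat, a log2 ratio of 1.25 (1.23 to 1.27). With every record counted it took 34.5% in rat, and the ratio was 0.72 (0.70 to 0.73). The class from 37 to 45 nt went the other way, at 30.6% in mouse and 16.8% in rat. Between these, the class from 26 to 31 nt took 19.7% and 19.3%, and the class from 32 to 36 nt 12.5% and 11.5%. Fragments above 45 nt, beyond the size fraction that the labels name, took 16.2% of mouse members and 2.49% of rat members, but 12.3% of rat reads of any record. The median member had 35 nt in the mouse library, as against 26 nt for rat members and 29 nt for rat reads of any record. The most frequent length was 29 nt in the mouse library, which is that of the fragment of bases 844 to 872. In rat it was 21 nt, the length of the fragment of bases 1035 to 1055.

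**Figure D5:**
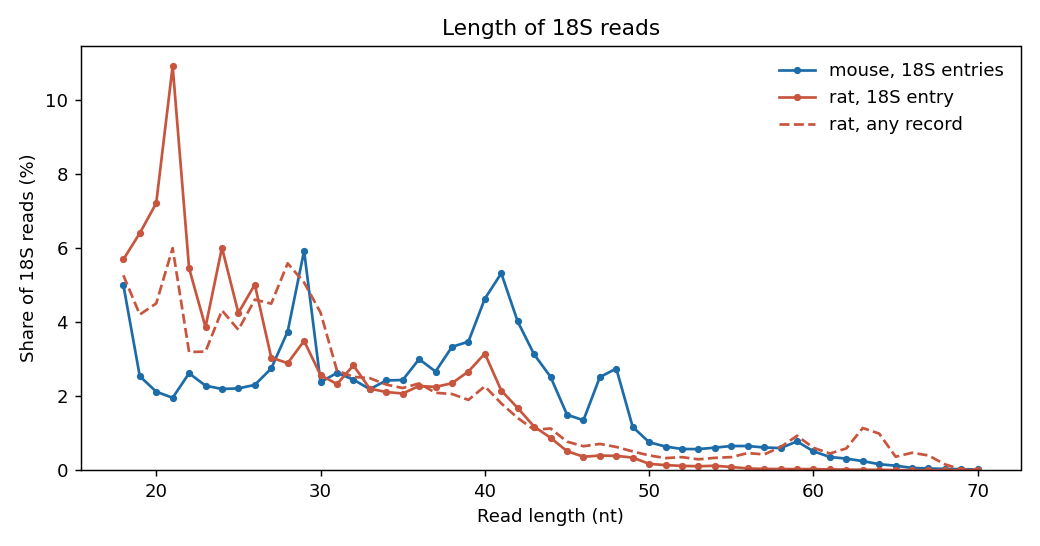
Share of 18S reads (y axis, %) by read length (x axis, nt) for mouse members, rat members and rat reads of any record. Rat members peak at 21 nt, and mouse members at 29 nt and 41 nt.

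The 10 most abundant made up 14.9% of mouse and 19.1% of rat members. Among these members, 2 sequences were in both lists, the 40-nt form of bases 1386 to 1425 and the 29-nt form of bases 844 to 872. With reads of any record counted, 0 sequences were in both lists of 10. Members with a single read were 39.1% of mouse and 43.9% of rat sequences, 256 and 182 had at least 100 reads, and 14 and 8 had at least 1000. In all, 4688 sequences were members in both libraries, 23.6% of the mouse and 42.3% of the rat members. Of the 256 mouse members with 100 or more reads, 144 were rat members, 93 stood under another record in rat and 19 were not listed in rat. Of the 182 rat members with 100 or more reads, 176 were mouse members, and 6 were not listed in mouse. The same overlap was not counted over all listed sequences, so these counts do not show whether 18S members differ from other sequences.

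Counted over sequences with at least 100 reads in both libraries together, 442 members were compared as shares of 18S member reads. A sequence could pass this minimum through 1 library alone. Of these, 147 (33.3%) were at least 2-fold higher in rat and 175 (39.6%) at least 2-fold higher in mouse, with a median log2 ratio of 0.12. The same rule over all 9067 listed sequences of that abundance called 63.2% higher in rat and 25.4% higher in mouse. Per listed read, 99 members (22.4%) were higher in rat and 213 (48.2%) in mouse, against 56.8% and 30.5% of all listed sequences. When rat and mouse reads of member sequences were counted under any record, 692 sequences were compared. Of these, 316 (45.7%) were higher in rat and 204 (29.5%) in mouse per listed read, with a median of 0.52 against 1.98 for all listed sequences. Among the 26 members with at least 1000 reads, the highest ratios of 18S shares were 7.73 for bases 780 to 803, 7.66 for 1035 to 1055, 7.07 for 780 to 798, 6.97 for 1035 to 1054 and 6.53 for 1035 to 1053. The lowest were those of 4 sequences without a rat member read, bases 1279 to 1325, 1747 to 1794, 1 to 41 and 69 to 96, and of bases 546 to 563 at -3.29. The fragments from bases 1 and 69 belong there only by the entry, since 122 and 1526 rat reads of them stood under mRNA records.

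At 7 positions at least 90% of reads, and at least 100 of them, carried another base than the copy on chromosome 17 in both libraries. These substitutions, written as the base of the copy, the position and the base of the reads, were C180G, T1051G, T1074C, A1083G, A1106G, C1666T and T1758C. T1758C was carried by 99.9% of 12627 mouse and 99.98% of 13223 rat reads, and T1051G by all 7301 mouse reads and 99.98% of 42826 rat reads. The capital in the mouse fragment of bases 1747 to 1794 is T1758C. G207C and G209T passed in rat alone. G207C was carried by 95.8% of 644 rat and 82.9% of 41 mouse reads, the latter under the minimum of 100 reads. G209T was carried by 98.04% of 1938 rat reads but by 1.41% of 71 mouse reads, so that most of the few mouse reads held the base of the copy. Each of the 7 shared bases was thus read alike in mouse and rat, and differed from the annotated copy.

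The stretch that the copy lacks was read out base by base from the reads of each library, by the most frequent next base. It was the same in both, and it is shown because reads across it could not be placed.
Stretch of 27 nt after base 1747: tcggatcggccccgccggggtcggccc
The read-out rested on 41 to 7912 rat reads per base, but on 1 to 218 in mouse. With the stretch added to the copy, 9072 further rat reads were placed, 2.86% of rat 18S sequence, of which 7984 stood under other records. In mouse 252 further reads were placed, 0.131%, and none of them stood under an 18S entry. 18S sequence of any record was then 1.63% of mouse and 2.16% of rat listed reads. The most abundant rat member without a place on the copy was the 22-nt aggccctcGgatcggccccGcc, with 426 reads, which runs into this stretch. In all, 5364 rat reads in 345 sequences held these 22 bases, of which 484 stood under the 18S entry. No listed mouse read held all 22 bases, and a count of 0 allows up to 3 reads. The main mouse entry, CT010467, has 1847 nt and its placed reads ran from base 1 to base 1847, which leaves no room for the 27 nt. Placed reads of the other mouse entry ended at base 1229. The mouse and rat counts of the stretch are thus not on equal terms. The tables list matched sequences only, with 40.6% of the mouse and 51.3% of the rat sequence numbers present. Whether mouse reads of the stretch went unmatched was not tested.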

How the data were processed

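Small RNA of purified caput sperm was sequenced in 1 mouse and 1 rat library from RNA of 18 to 45 nt, per the labels' protocols. The deposited tables give raw, whole read counts per distinct sequence with 1 matched entry each, per the file headers. No 18S row had more than 2 mismatches to its entry. Bowtie 0.12.7 and the builds mm9 and rn5 are named, without a role, in the submitters' processing notes, and no source used here describes adapter trimming. The tables held 11760708 mouse and 14652889 rat reads, so a 1% share has an interval at most 0.0114 percentage points wide. The closing sum line of the mouse table was left out.

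Every listed read was placed without gaps, with at most 2 mismatches, on the sense strand of the 18S copy of GENCODE vM21 (GRCm38, not a build of the submitters), with Python 3.11.15, numpy 2.4.6 and pandas 2.3.3. Placement was tested on simulated data. Adding the 27 nt that the copy lacks was chosen after seeing the data. Shares have exact Clopper-Pearson and ratios exact conditional binomial 95% intervals (scipy 1.17.1), which cover counting error only, since reads are PCR products without molecular identifiers. With 1 library per species no test was made. A 0 in a ratio was set to 3 counts.

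Named were entries with at least 1% of members, the 10 most abundant members of each library, the 5 highest and 5 lowest ratios among members with 1000 or more reads, the 3 leading 100-nt bins and the 5 leading 5′ and 3′ ends of each library. Ends at bases 1, 135, 433, 1747 and 1749, leading sequences among rat reads of any record and the 22-nt stretch were chosen after their values were seen. Members, lists and alternatives were chosen with earlier results of these data known.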

Additional observations from a re-analysis of the deposited data

How the results depend on the processing

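The log2 ratio of the 18S share, -0.97, kept its direction per listed reads without the most abundant sequence of each library (-1.17), per rRNA reads (-1.96), outside SNORD58 (-1.57), over distinct sequences (-0.35), with 0 mismatches (-2.99), with at least 10 reads per sequence (-1.02), without the leading 18S sequence (-1.02), for 18 to 45 nt (-0.83) and for plus-strand rows (-0.96). It reversed to 0.37 with 18S sequence under every record added, to 0.038 for such sequence exact to the copy and to 0.16 for it without the most abundant sequence, but was -0.24 for it outside SNORD58. With the 27 nt added to the copy it reversed to 0.41. Except for 0.37, the settings on reads of any record and those that change the copy were chosen after seeing the data. The ratio for starts in bases 1301 to 1400 was 0.05, then 0.15 for exact reads, 0.57 for distinct sequences, 0.10 without the leading sequence, and it reversed to -1.10 for any record. The ratio for 18 to 25 nt, 1.25, was 0.88 for distinct sequences, 1.09 without the leading sequence and 0.72 for any record. The ratio for base 1035, 4.77, was 1.23, 3.77 and 4.33 in the same order. Scaled per 18S member read, members at least 2-fold higher in rat numbered 147 of 442 (33.3%). With reads under any record they numbered 385 of 692 (55.6%), still divided by member reads alone. The same rule called 63.2% of all 9067 listed sequences higher in rat. The log2 ratio of the share listed outside the 18S entries, 12.92, stayed within its interval for exact reads and on a copy corrected at 7 bases, and was 8.78 with the 27 nt added. Of 34 alternatives, 9 stayed within the interval, or within 1.5 times for counts, and 5 reversed. No paired analysis was possible because there is 1 library per species. For the same reason no library could be left out.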

Other observations

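Reads tended to open and close at certain bases. The first base of mouse 18S members was A in 39.0% and G in 10.5% of reads, where the copy holds 22.7% A and 29.2% G. Among rat reads of any record it was A in 35.3% and G in 12.8%. The last base was C in 39.3% of mouse members and in 47.6% of rat reads of any record, against 26.2% C in the copy. The base before the read was A in 29.3% of mouse members and 35.1% of rat reads of any record. GC content was 54.9% over mouse and 55.5% over rat members, against 55.4% in the copy. These shares weigh each read, so a few ends count strongly: with base 1035 alone, 9.68% of rat reads begin with A.

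Across all 1849 bases, the number of reads starting at each base correlated between the libraries with Pearson r 0.35 and Spearman rho 0.76 for any record, and with 0.42 and 0.41 for members. The bases share each library's depth, and these values are descriptions. Antisense 18S sequence was rare, with 13 mouse and 35 rat reads of any record placed on the opposite strand. Of these, all 13 in mouse but only 18 in rat had no place on the sense strand. Members listed on the minus strand were 24 mouse reads and 9 rat reads.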
